A study of Mus musculus with 2 samples.

Results

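The Dpp4 Sema3e Smpd3 fibroblasts are collagen-producing stromal cells of the mouse bladder in which at least 3 of the 5 genes Dpp4, Smpd3, Sema3e, Efhd1 and Prdm8 were detected. They were chosen from 16334 barcodes of 2 single-cell RNA libraries by a fixed series of steps. A barcode needed at least 1000 UMIs (unique molecular identifiers, each counting 1 captured mRNA molecule), at least 500 genes and under 15% mitochondrial UMIs. It had to be found in 1 library only, or be more than 10 times deeper than its copy in the other library. Col1a1, Col1a2, Col3a1 and Dcn together had to reach 40 per 10,000 UMIs, and Pecam1, Cdh5 and Epcam, which mark endothelium and epithelium, had to sum to under 2 UMIs. These steps left 7140 gated cells, of which 422 met the 5-gene rule, 5.91% (95% Clopper-Pearson interval 5.37 to 6.48). The 422 members were 29 cells of the Tom+ library and 393 cells of the Tom- library.

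Both libraries came from the bladder of 1 male mouse aged 25 months of genotype p16-CreERT2/R26-LSL-tdTomato, in which a tamoxifen-inducible Cre recombinase driven by p16 switches on the red fluorescent protein tdTomato from the Rosa26 locus. Tamoxifen was injected intraperitoneally on 5 consecutive days and the bladder was taken 2 weeks later. DAPI-negative cells lacking CD45, the pan-leukocyte antigen, were separated by sorting. The Tom+ fraction (2783 barcodes, 34455896 UMIs) carried the p16-driven mark and the Tom- fraction (13551 barcodes, 197232860 UMIs) did not. With 1 library per group and 1 animal, no difference between the libraries has a replicate check. The members were also chosen on transcripts of these same cells, so all values below are descriptions without a test, and every 95% interval covers counting error only.

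Dipeptidyl peptidase 4, the product of Dpp4, is a cell-surface enzyme that trims the amino terminus of chemokines such as CXCL12 and CCL11. In many mouse tissues Dpp4 and Pi16 mark fibroblasts of the adventitia and other connective tissue sheaths, which are regarded as a reservoir population of the stroma. Smpd3 encodes a neutral sphingomyelinase that releases ceramide from sphingomyelin, Sema3e encodes a secreted semaphorin that signals through plexin D1 on endothelium and neurons, Efhd1 encodes a mitochondrial calcium-binding protein and Prdm8 a transcriptional regulator of the PRDM family. Edn1, which was not used by the rule, encodes the precursor of endothelin-1, a strong constrictor of smooth muscle that is best known as a product of endothelium.

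The members deviated from their label in a way that bears on every later value. Mesothelial cells, the flat lining of the outer bladder surface, carried Dpp4 and Smpd3 as well and passed the collagen gate. The summed level of 10 mesothelial markers (Msln, Upk3b, Lrrn4, Krt19, Krt7, Krt8, Krt18, Muc16, Gpm6a and Upk1b) divided the members into separate kinds of cells. In 126 of the 422 members, 29.9% (25.5 to 34.5), it reached 20 per 10,000 UMIs, and these are called marker-rich members. They were 13 of the 29 Tom+ members and 113 of the 393 Tom- members. The other 296 members, 16 Tom+ and 280 Tom-, are called marker-poor. In the Tom+ library the marker sum ran up to 2.00 per 10,000 UMIs in marker-poor members and began at 32.8 in marker-rich members, which left a wide gap. In the Tom- library the sums ran up to 19.9 and began at 21.0, and 21 Tom- members lay between 10 and 40.

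**Figure D1:**
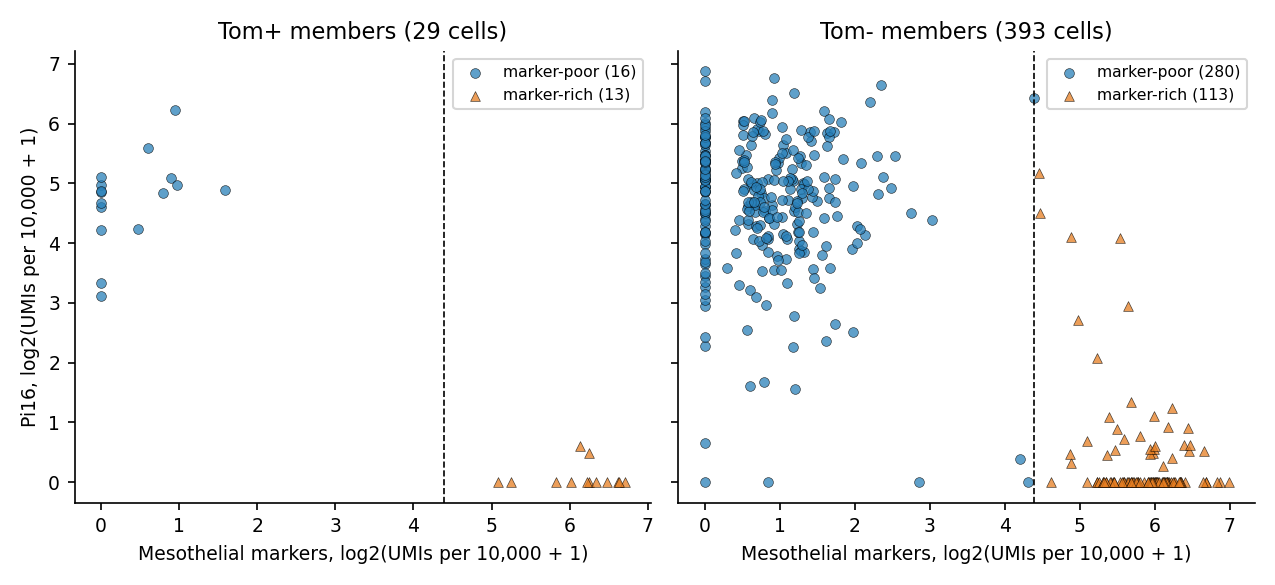
Each point is 1 member, with the summed mesothelial markers on the x axis and Pi16 on the y axis, both as log2 of UMIs per 10,000 plus 1; the dashed line marks 20 per 10,000 UMIs. The 16 Tom+ and 280 Tom- marker-poor members lie left of the line and most of them carry Pi16, while the 13 Tom+ and 113 Tom- marker-rich members lie right of it and most of them carry little or none.

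The genes that defined these kinds differed sharply in level. Msln, the mesothelial surface protein mesothelin, stood at 749 CPM (UMIs of a gene per 1000000 UMIs summed over the cells of a group) in Tom+ marker-rich members and 640 CPM in Tom- marker-rich members, and at 0 and 3.29 CPM in the Tom+ and Tom- marker-poor members. Wt1, a transcription factor of mesothelium, was detected in 100% of Tom+ and 98.2% of Tom- marker-rich members, and in 25.0% and 23.9% of the marker-poor members. Pdgfra, a receptor of platelet-derived growth factor that fibroblasts carry, had 15.1 CPM in Tom+ and 67.6 CPM in Tom- marker-rich members, against 330 and 445 CPM in Tom+ and Tom- marker-poor members. Pi16, a secreted peptidase inhibitor, stood at 7.56 and 108 CPM in Tom+ and Tom- marker-rich members, and at 2844 and 3017 CPM in marker-poor members. The fibroblast description therefore held for the marker-poor members as a group. All 10 general fibroblast markers were detected in at least 25% of these cells in each library. Col1a1, Col1a2, Col3a1 and Dcn among them formed the collagen gate, so their summed level was fixed by the choice of cells. A few Tom- marker-poor members held no Pi16 UMI. For the 126 marker-rich members the label went against the markers, and they are described on their own further below. The split was made after the data were seen.

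Secreted Slpi, Prg4 and C3, which the full list of 13 mesothelial markers also holds, were left out of the sum that split the members. With them the list summed to 2757 CPM in Tom+ and 2869 CPM in Tom- marker-poor members, against 1482 and 1045 CPM in the other Tom+ and Tom- marker-poor gated cells. Complement C3, which many stromal cells also express, gave 2709 and 2712 CPM of this in Tom+ and Tom- members, against 1318 and 887 CPM in the other cells. Msln, Upk3b, Lrrn4, Muc16, Gpm6a and Upk1b were at 0 UMIs in the Tom+ marker-poor members. The part of mesothelial RNA in the values of marker-poor members was not tested.

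Endothelial and immune markers were low in the summed marker-poor members, with single Tom- cells as exceptions. Of 10 endothelial markers, 8 were at 0 UMIs in the 16 Tom+ marker-poor members, among them Cdh5, Kdr, Vwf and Plvap. The list summed to 8.99 CPM there and 32.9 CPM in the Tom- marker-poor members. Pecam1 and Cdh5 of this list, and Epcam of the urothelial list, were limited by the gate, so their low level is no finding. Of 11 immune markers 10 were at 0 in Tom+ marker-poor members, with a summed level of 3.00 CPM there and 28.5 CPM in Tom- marker-poor members. Ptprc, the gene of CD45, was among those at 0. Smooth muscle and mural markers summed to 62.9 CPM in Tom+ and 170 CPM in Tom- members, with Myh11 and Rgs5 at 0 in the Tom+ members. Per cell, these 3 lists reached at most 0.665, 0.454 and 3.66 per 10,000 UMIs in a Tom+ member, and 19.6, 121 and 133 in the highest Tom- member, in the order endothelial, immune, smooth muscle. Adipocyte markers were all at 0 in Tom+ members and summed to 36.2 CPM in Tom- members, and the urothelial, Schwann and erythroid lists summed to 18.0, 15.0 and 68.9 CPM in Tom+ and 59.5, 50.9 and 411 CPM in Tom- members. Lymphatic endothelial markers summed to 309 and 358 CPM in Tom+ and Tom- members with Prox1 and Lyve1 at 0 in Tom+ members, and markers of interstitial cells to 1115 and 1182 CPM with Kit and Ano1 at 0 in Tom+ members. Their part in the results below was not tested. The general fibroblast list, which holds the genes of the collagen gate, summed to 26704 CPM in Tom+ marker-poor members and 28620 CPM in Tom- marker-poor members.

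Depth and barcodes differed between the groups compared. Members had a median of 20390 UMIs among Tom+ marker-poor cells and 18039 among Tom- marker-poor cells, against 8646 and 11782 UMIs in the other Tom+ and Tom- marker-poor gated cells. Detecting 3 of 5 genes is easier in a deeper cell, and its part in the choice of members is measured below by thinning. The libraries shared 966 cell barcodes. In 6 of the 16 Tom+ marker-poor members and 2 of the 13 Tom+ marker-rich members the barcode was also in the Tom- library, each with the Tom+ copy more than 10 times deeper, and no Tom- member carried a shared barcode. Scrublet predicted 0 of the 29 Tom+ and 15 of the 393 Tom- members as doublets, and these cells were kept.

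Dpp4 stood at 372 CPM in Tom+ marker-poor members against 21.0 CPM in the other Tom+ marker-poor gated cells, and at 296 CPM in Tom- members against 13.2 CPM in other Tom- cells. Sema3e stood at 89.9 CPM against 3.91 CPM in the Tom+ library and at 102 CPM against 3.98 CPM in the Tom- library, members first. Smpd3 was at 59.9 CPM in Tom+ members and 125 CPM in Tom- members, with 7.03 and 4.16 CPM in the other cells. In build GRCm38 the genes are found at chr2:62330073-62412231 (Dpp4, minus strand), chr5:14025276-14256689 (Sema3e, plus strand) and chr8:106252548-106337988 (Smpd3, minus strand). These genes and Efhd1 (270 and 237 CPM in Tom+ and Tom- members) and Prdm8 (33.0 and 52.1 CPM) chose the members, so their levels are no finding. Among Tom- marker-poor members the most frequent combination was Dpp4, Sema3e and Efhd1 alone, in 67 of 280 cells, and all 5 genes were found together in 51. Just inside the threshold, with 3 genes, were 5 Tom+ and 134 Tom- marker-poor cells, and just outside it, with 2 genes, were 38 and 263.

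To see where the members lay without the rule genes, the 7140 gated cells were clustered with Dpp4, Smpd3, Sema3e, Efhd1, Prdm8, tdTomato and Cdkn2a left out, which gave 16 clusters. A single cluster, number 6, consisted almost wholly of members: 148 of its 165 cells met the rule, 89.7% (84.0 to 93.9), and they were 35.1% of all members. Its leading genes were Edn1, Ccl11, Akr1c18, Vegfd, Ace, Adamts5, Sult1e1, Eya2, Pcsk6 and Galnt16. Cluster 0, led by Tmem100, Ebf2, Postn and Olfml2a, held 103 members among 666 cells, 15.5% (12.8 to 18.4). Cluster 5, led by Cilp, Sfrp4 and Mmp3, held 28 members among 536 cells. Clusters 8 and 9 held 101 of 478 and 25 of 438 cells, cluster 8 led by Myl7 and Prg4 and cluster 9 by Saa3 and Cxcl5. All 13 Tom+ marker-rich members and 111 of the 113 Tom- marker-rich members lay in these. The other 11 clusters held at most 6 members each.

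**Figure D2:**
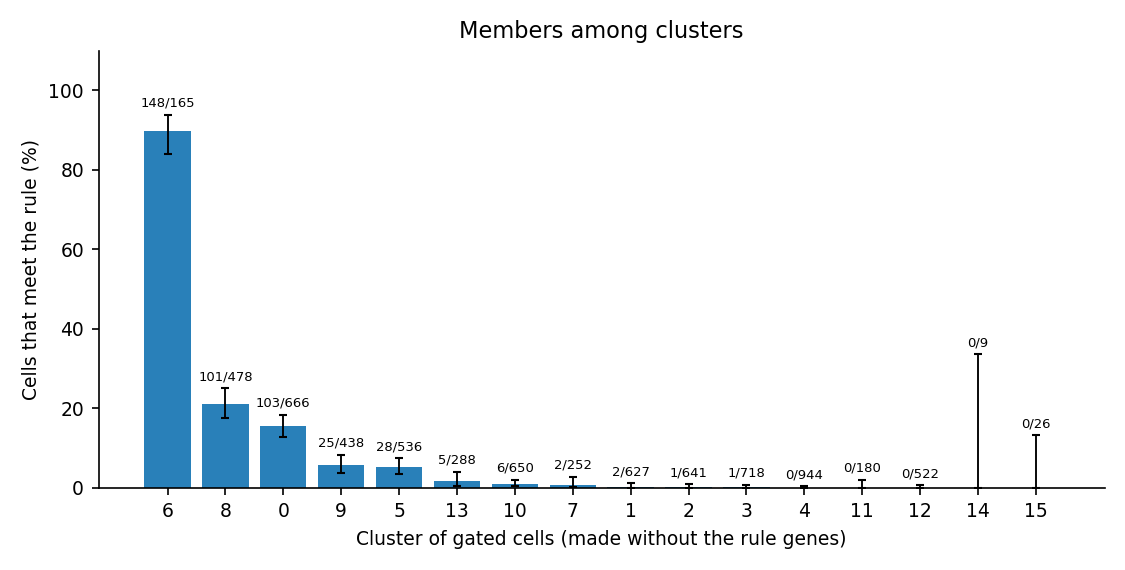
Bars give the percentage of gated cells in each cluster that met the rule, on a linear axis from 0, with 95% Clopper-Pearson intervals; the fractions above the bars are members over cells of the cluster. Cluster 6 reaches 89.7%, followed by cluster 8 at 21.1% and cluster 0 at 15.5%.

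Secreted signals were among the transcripts of the marker-poor members that lay furthest above the other gated cells. Across 8841 measured genes, 274 (3.10%) were at least 2 times higher in marker-poor members than in other marker-poor gated cells in both libraries, and 334 (3.78%) at least 2 times lower. The interval of the ratio lay above 1 in both libraries for 262 of the 274 higher genes. Over all members and all other gated cells, with the mesothelial cells left in, 181 of 9032 genes (2.00%) were higher and 203 (2.25%) lower. Ratios below are log2 of CPM plus 1, members over other marker-poor cells, averaged over the 2 libraries unless a library is named.

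Edn1 (chr13:42301476-42307990, plus strand) had the highest ratio of the 15 named higher genes, 5.15. Tom+ members had 59.9 CPM (36.6 to 92.6) of Edn1, from 20 UMIs, against 0.391 CPM in the other Tom+ cells, and Tom- members had 102 CPM (93.0 to 111), from 524 UMIs, against 2.55 CPM. An Edn1 UMI was found in 8 of 16 Tom+ members, 50% (24.7 to 75.3), and in 3 of 768 other Tom+ cells, 0.391%. It was found in 123 of 280 Tom- members, 43.9% (38.0 to 49.96), and in 89 of 5127 other Tom- cells, 1.74%. With each cell thinned to 5000 UMIs the shares were 4 of 16 and 0 of 572 in Tom+ members and other Tom+ cells, and 27.5% (22.3 to 33.2) and 0.924% (0.664 to 1.25) in Tom- members and other Tom- cells. The endothelial marker Vwf was at 0 in the Tom+ members, and Cdh5 was limited by the gate in both libraries. The part of endothelial RNA in these Edn1 values was not tested. Edn1 was thus detected in a part of the members only, and in far fewer of the other cells.

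The other secreted factors named were carried by larger shares of the members. Ccl11, the chemokine eotaxin that attracts eosinophils, stood at 620 CPM in Tom+ members against 66.2 CPM in other Tom+ cells, and at 500 CPM in Tom- members against 45.4 CPM in other Tom- cells. Vegfd, a growth factor of lymphatic vessels, stood at 494 against 38.8 CPM in the Tom+ library and 316 against 30.7 CPM in the Tom- library, members before other cells. Per cell, Vegfd had a median of 4.40 per 10,000 UMIs in Tom+ members and 2.22 in Tom- members, and a median of 0 in the other cells of each library. Igfbp5, a secreted binding protein of insulin-like growth factors, had 1813 CPM in Tom+ and 2595 CPM in Tom- members, with 373 and 205 CPM in the other Tom+ and Tom- cells. Members were therefore higher than other cells for all 3 genes in both libraries, while the per-cell ranges overlapped, with Ccl11 reaching 31.3 per 10,000 UMIs in 1 other Tom+ cell against at most 12.8 in a Tom+ member.

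The promoters of 3 of the named higher genes are shown because Edn1, Dact2 and Vegfd ranked 1, 2 and 4 by ratio and because Ebf1, Ebf2 and Ebf3, transcription factors that bind a palindromic site, were higher in the same cells. Each sequence is RefSeq's, build GRCm38.p6, from 250 bases before to 50 after the transcript start, 5′ to 3′ on the gene's own strand. Capitals mark a match, on either strand, to the EBF core CCCNNGGG, the cyclic-AMP element TGACGTCA, the AP-1 site TGANTCA, the TATA box TATAAA or the GATA site AGATAA. The Edn1 window is chr13:42301226-42301525 on the plus strand, that of Vegfd is chrX:164373272-164373571 on the plus strand and that of Dact2 is chr17:14203782-14204081 on the minus strand.
Edn1: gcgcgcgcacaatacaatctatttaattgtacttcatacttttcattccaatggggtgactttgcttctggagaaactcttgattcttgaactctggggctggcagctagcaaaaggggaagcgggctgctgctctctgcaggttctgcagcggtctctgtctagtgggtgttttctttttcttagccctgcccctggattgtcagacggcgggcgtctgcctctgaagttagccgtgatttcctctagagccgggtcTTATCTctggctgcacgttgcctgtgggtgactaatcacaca
Vegfd: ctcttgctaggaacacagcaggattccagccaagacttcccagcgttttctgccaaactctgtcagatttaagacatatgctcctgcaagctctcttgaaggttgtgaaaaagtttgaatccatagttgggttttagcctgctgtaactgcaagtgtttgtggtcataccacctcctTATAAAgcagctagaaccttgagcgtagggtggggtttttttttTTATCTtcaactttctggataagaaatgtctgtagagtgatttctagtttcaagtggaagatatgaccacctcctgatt
Dact2: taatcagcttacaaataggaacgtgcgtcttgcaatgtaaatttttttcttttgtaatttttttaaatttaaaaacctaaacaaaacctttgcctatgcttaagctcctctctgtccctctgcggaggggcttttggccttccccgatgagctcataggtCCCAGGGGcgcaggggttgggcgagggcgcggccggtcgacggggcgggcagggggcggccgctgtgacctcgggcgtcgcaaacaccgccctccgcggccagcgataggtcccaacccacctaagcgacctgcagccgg
The Edn1 window held 1 GATA match and none of the other motifs. The Vegfd window held a TATAAA match starting at position -73 and a GATA match starting at -29 from the transcript start, and the Dact2 window held an EBF core match starting at -90. Of 27025 promoters of this length, 1 per gene symbol, 13.4% held the EBF core, 14.2% TATAAA, 11.4% the GATA site, 7.93% the AP-1 site and 1.88% the cyclic-AMP element. No motif searched contains another, and such matches describe the windows without showing that a factor binds there. Sequences of 10 of the 15 named higher genes were at hand, and they had 14 windows, since some have several starts. Of the 14 windows 4 held an EBF core match, 1 each of Dact2, Galnt16, Pcsk6 and Ace. Unlike the background, these windows count some genes more than once, so the shares are not on the same basis.

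Other genes of the endothelin pathway did not share the ratio of Edn1. Of 10 genes of endothelins, their processing and receptors 5 were measured; Edn1 was higher, and Edn3 and the receptor gene Ednrb were lower. Ednrb had 0 UMIs in Tom+ members and 4.46 CPM in Tom- members, against 20.6 and 48.3 CPM in other Tom+ and Tom- cells. Ece1, the enzyme that cuts endothelin-1 from its precursor, had 92.9 CPM in Tom+ and 89.7 CPM in Tom- members, against 95.1 and 116 CPM in the other cells, a difference under 2 times. Ednra fell below the minimum, with 0 UMIs in Tom+ and 8 UMIs in Tom- members.

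Of 20 semaphorins 9 were measured, and Sema3c was higher beside the rule gene Sema3e while Sema5a was lower. Sema3c, another secreted class 3 semaphorin, stood at 887 CPM in Tom+ members against 277 CPM in other Tom+ cells, and at 989 CPM in Tom- members against 266 CPM in other Tom- cells. Of 11 plexin and neuropilin genes 6 were measured, none was higher and Plxna4 and Plxna2 were lower. Plxnd1, the receptor of Sema3e, had 4 UMIs in Tom+ and 18 UMIs in Tom- members and was below the minimum. Nrp1, a co-receptor of class 3 semaphorins, stood at 80.9 and 125 CPM in Tom+ and Tom- members, against 69.6 and 85.0 CPM in the other cells.

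No sphingolipid gene other than the rule gene Smpd3 was called higher. Of 27 measured genes of sphingomyelin and ceramide metabolism and sphingosine-1-phosphate receptors, Smpd3 was higher and Cers4 and Sphk1, a ceramide synthase and a sphingosine kinase, were lower, with a median ratio of 0.05 beside -0.05 over all measured genes. Smpd1, the acid sphingomyelinase of the lysosome, stood at 39.0 CPM in Tom+ members against 35.2 CPM in other Tom+ cells, and at 31.6 CPM in Tom- members against 36.0 CPM in other Tom- cells. The neutral enzyme Smpd2 was at 8.99 and 19.4 CPM in Tom+ and Tom- members, against 25.5 and 23.7 CPM in the other cells.

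A few cell-surface peptidases differed besides Dpp4. Of the 13 others measured, Ace, Enpep and Anpep were higher and the carboxypeptidases Cpz and Cpxm2 lower. Both carboxypeptidases had 0 UMIs in Tom+ members, and against the limit of 3 counts Cpxm2 was at least 1.12-fold lower there, so that its call rests on the added 1 CPM. Ace, which makes angiotensin II, stood at 126 CPM in Tom+ members against 19.0 CPM in other Tom+ cells, and at 116 CPM in Tom- members against 13.9 CPM in other Tom- cells. Enpep, aminopeptidase A, which cleaves angiotensin II, stood at 50.9 and 36.2 CPM in Tom+ and Tom- members, against 12.8 and 16.6 CPM. Agtr1a, a receptor of angiotensin II, was higher as well, with 33.0 and 33.7 CPM in Tom+ and Tom- members and 9.77 and 6.27 CPM in the other cells. Ren1, the gene of renin, which starts the formation of angiotensins, was lower, with 0 UMIs in Tom+ and 1.94 CPM in Tom- members, against 19.8 and 108 CPM in the other cells. These angiotensin genes were set side by side after their values were seen.

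The remaining named higher genes included proteases, other enzymes and proteins of other kinds. Adamts5, a protease of the proteoglycans aggrecan and versican, stood at 1364 CPM in Tom+ members against 202 CPM in other Tom+ cells, and at 1155 CPM in Tom- members against 161 CPM in other Tom- cells. Plau, the plasminogen activator urokinase, stood at 105 against 8.08 CPM in the Tom+ library and 51.9 against 10.9 CPM in the Tom- library, members before other cells. Pcsk6, a proprotein convertase, had a ratio of 2.93, Sult1e1, an estrogen sulfotransferase, 2.86 and Cmah, which makes the sialic acid Neu5Gc, 3.18. Dact2, an intracellular binding partner of Dishevelled, had a ratio of 4.19 and Galnt16, a mucin-type glycosyltransferase, 3.49. Akr1c18, which inactivates progesterone, stood at 95.9 CPM in Tom+ members and at 49.4 CPM in Tom- members, against 0 UMIs in other Tom+ cells and 0.274 CPM in other Tom- cells. Against the 3 counts that a 0 allows over all other Tom+ cells, the Tom+ members were at least 245-fold higher in Akr1c18. Akr1c18 lies outside the naming rule and was chosen after its values were seen. The last of the named higher genes were Tmeff2, Anxa3 and Scara3, with ratios of 2.82, 2.70 and 2.67.

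**Figure D3:**
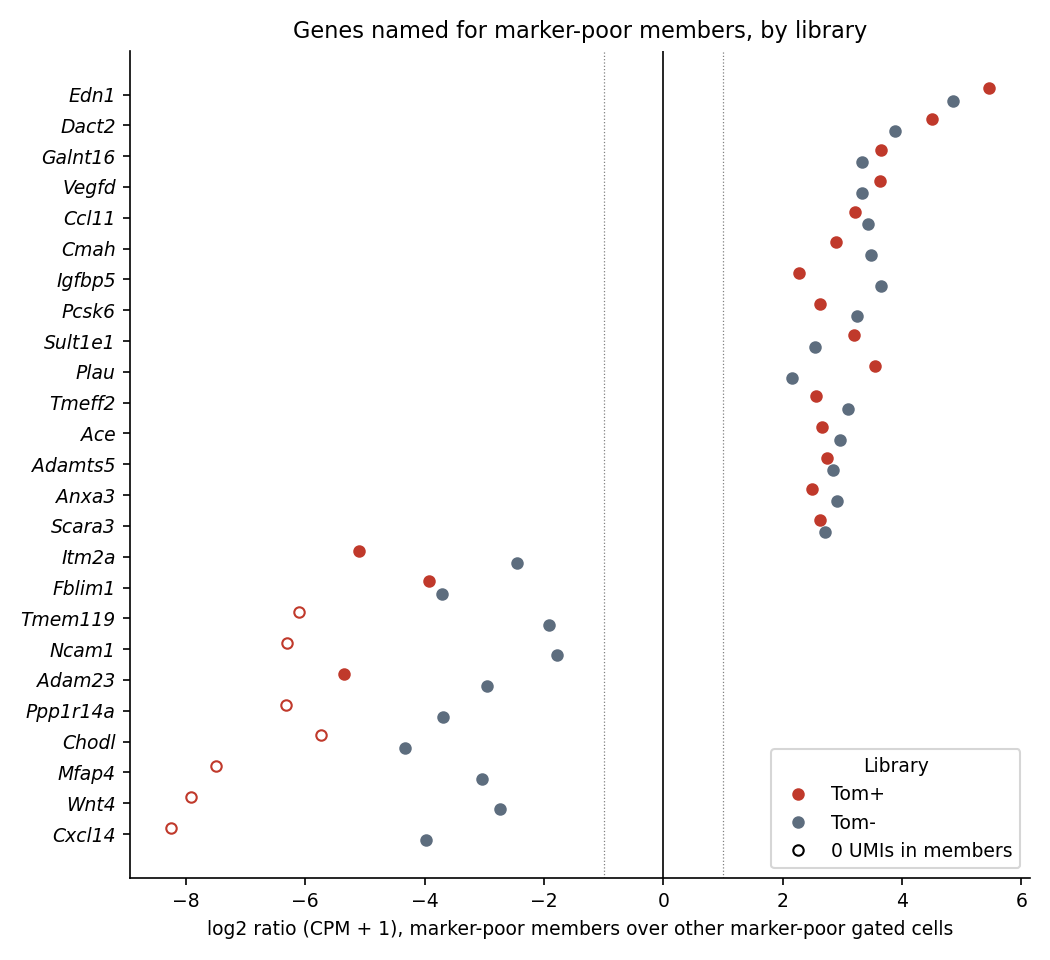
Points give the log2 ratio of CPM plus 1 of marker-poor members over other marker-poor gated cells for the 15 named higher and 10 named lower genes, red for the Tom+ and grey for the Tom- library; open points are genes with 0 UMIs in the members of that library, and dotted lines mark 2 times. Higher genes lie within 1.5 log2 units of each other between the libraries, and lower genes lie further left in the Tom+ library, where the 16 members hold few UMIs.

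Transcription factors of connective tissue split into higher and lower groups. Of 38 measured developmental factors 7 were higher, among them Ebf1, Ebf2, Ebf3, Osr2 and Prrx1, and 8 lower, among them Hand2, Tbx4 and Tcf21. Ebf1 stood at 836 CPM in Tom+ members against 184 CPM in other Tom+ cells, and at 665 CPM in Tom- members against 118 CPM in other Tom- cells. Prrx1, a homeobox factor of limb and body-wall mesenchyme, stood at 387 and 351 CPM in Tom+ and Tom- members, against 86.1 and 62.4 CPM in the other cells. Eya2, a transcriptional co-activator with phosphatase activity, stood at 77.9 and 37.4 CPM in Tom+ and Tom- members, against 2.87 and 2.29 CPM in the other Tom+ and Tom- cells. Tcf21, a factor of visceral mesenchyme, had 177 CPM in Tom+ and 232 CPM in Tom- members, against 853 and 1129 CPM in the other cells.

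The list of genes known from Dpp4+ Pi16+ adventitial fibroblasts was higher in most of its members. Of 34 measured genes 24 were higher and 0 lower, with a median ratio of 1.62 beside -0.05 over all measured genes. Pi16 itself stood at 2844 CPM in Tom+ members against 1202 CPM in other Tom+ cells, and at 3017 CPM in Tom- members against 1154 CPM in other Tom- cells. Mfap5 and Fbn1, components of microfibrils, stood at 1975 and 1322 CPM in Tom+ members and 1808 and 1464 CPM in Tom- members, against 638 and 442 CPM in other Tom+ cells and 583 and 350 CPM in other Tom- cells. Cd55, Sema3c, Anxa3, Gfpt2, Tek and Has1 were among the others. The list was chosen with earlier results of these data known, so its direction is no independent evidence.

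No collagen was called higher, and other matrix genes were called in both directions. Of 20 measured collagens 0 were higher and 6 lower, with a median of -0.97. Col1a1, the main fibrillar collagen chain and a gene of the gate, stood at 1028 CPM in Tom+ members against 2911 CPM in other Tom+ cells, and at 1580 CPM in Tom- members against 4543 CPM in other Tom- cells. Col15a1, a basement membrane collagen, stood at 3.00 and 16.5 CPM in Tom+ and Tom- members, against 122 and 75.3 CPM. Nid1, the basement membrane linker nidogen-1, was higher, at 1426 and 1267 CPM against 332 and 249 CPM, and Tnc, the glycoprotein tenascin C, was lower, at 0 UMIs and 5.04 CPM against 58.4 and 169 CPM, Tom+ before Tom- in each pair. Of 22 measured elastic fibre genes 5 were higher and 2 lower, of 40 matrix glycoproteins 9 were higher and 8 lower, and of 29 matrix-degrading enzymes and inhibitors 4 were higher and 1 lower. Among 6 measured hyaluronan genes Tnfaip6 and Has1, which bind and make hyaluronan, were higher and none was lower.

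Genes known from other bladder fibroblasts were among the lower ones. Of 18 measured genes of subepithelial signalling fibroblasts 11 were lower and 1, Wnt5a, was higher, with a median of -2.87, or -1.98 with genes at 0 UMIs placed at the limit that 3 counts allow. Cxcl14, a chemokine of the subepithelial layer, had 0 UMIs in Tom+ members and 83.1 CPM in Tom- members, against 303 CPM in other Tom+ cells and 1331 CPM in other Tom- cells, and was at least 33.7-fold lower in Tom+ members. Wnt4 had 0 UMIs in Tom+ and 30.2 CPM in Tom- members, against 240 and 207 CPM in other Tom+ and Tom- cells. The remaining named lower genes were Mfap4, Chodl, Ppp1r14a, Adam23, Ncam1, Tmem119, Fblim1 and Itm2a. Of 25 measured genes of tissue-resident and perivascular fibroblasts 10 were lower and 1, Gdf10, higher, with a median of -1.16. Of all 334 lower genes 109 had 0 UMIs in the 16 Tom+ members, where 3 counts correspond to 8.99 CPM, and 65 of these were at least 2 times lower against that limit.

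Cxcl12, a chemokine that the title of the study links to senescent fibroblasts of the aged bladder, was lower in the members. It stood at 89.9 CPM in Tom+ marker-poor members against 612 CPM in other Tom+ marker-poor cells, and at 107 CPM in Tom- members against 353 CPM in other Tom- cells, a ratio of -2.23. Ackr3, a decoy receptor that takes up CXCL12, was higher, at 414 and 526 CPM in Tom+ and Tom- members against 151 and 115 CPM in the other cells. Of 14 measured chemokine genes and receptors, Ccl11, Ackr2 and Ackr3 were higher and Cxcl14, Cxcl5, Cxcl16 and Cxcl12 lower. Among secretory factors associated with senescence, 40 of them measured, 11 were higher, among them Edn1, Ccl11, Igfbp5 and Plau, and 5 were lower, among them Cxcl12 and Igfbp7. The median ratio of this list was 0.11, beside -0.05 over all measured genes. The counts of both lists are to be read against 3.10% higher and 3.78% lower over all 8841 measured genes.

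The other gene lists are given by their counts, to be read against 3.10% higher and 3.78% lower over all 8841 measured genes. Of 23 measured Wnt genes 2 were higher and 6 lower, of 32 TGF-beta and BMP genes 5 were higher and 7 lower, and of 17 growth factors Vegfd, Fgf2 and Angptl4 were higher and Pgf and Fgf9 lower. Igfbp5 and Igfbp4 were higher and Igfbp7 lower among 6 IGF-binding proteins. Complement genes (13 measured) had 2 higher and 2 lower, prostaglandin genes (15) 1 and 4, lipid and retinoid genes (19) 1 and 5, and neural adhesion genes (22) 4 and 8. Ion channels and contractility regulators (17) had 1 higher and 4 lower, neuropeptides and their receptors (12) 1 and 5, and antigen presentation genes (12) 0 and 4. Of 16 cell-cycle inhibitors Cdkn1c, the p57 inhibitor, was higher and none lower, of 17 p53 targets 0 were higher and 2 lower, and of 26 interferon-stimulated genes 3 were higher and none lower. None of 4 measured proliferation genes differed by 2 times in both libraries. Of 32 genes that rise during tissue dissociation Klf6 was higher and 4 were lower.

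The leading genes were higher in marker-poor cells with more of the rule genes. In Tom- cells with 0, 1, 2, 3, 4 and 5 rule genes Edn1 stood at 1.29, 4.02, 12.4, 44.5, 123 and 197 CPM. Ccl11 stood at 29.3, 85.2, 122, 211, 655 and 899 CPM in the same cells, and Vegfd at 20.9, 55.7, 75.3, 182, 382 and 512 CPM. In the Tom+ library, with 5, 9 and 2 cells at 3, 4 and 5 rule genes, Vegfd stood at 161, 536 and 1124 CPM and Edn1 at 0, 92.1 and 68.8 CPM. In the Tom- library the largest step in CPM of all 3 genes lay between 3 and 4 rule genes, and cells just inside the threshold were nearer in Ccl11 to cells with 2 genes than to cells with 4. Cells with more rule genes were also deeper, and the part of depth in this order was not tested.

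**Figure D4:**
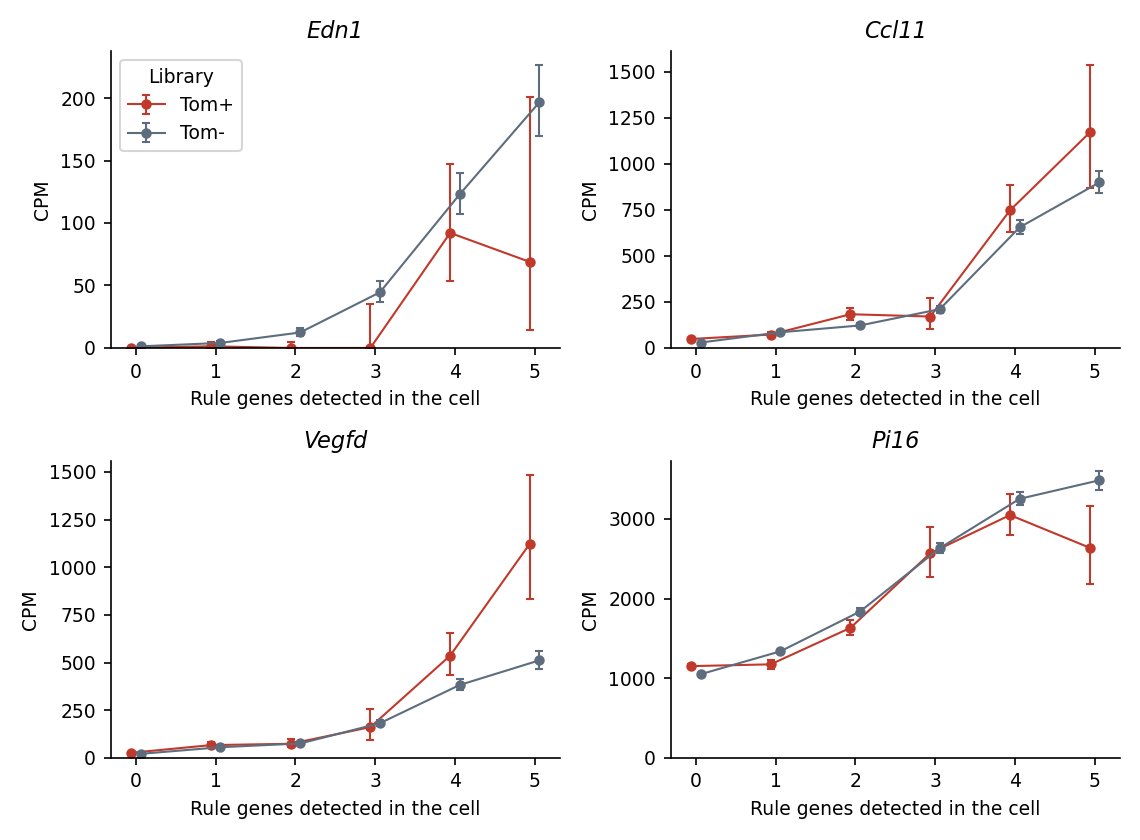
Each panel gives the CPM of a gene, on a linear axis from 0, over marker-poor cells with 0 to 5 rule genes detected, red for the Tom+ and grey for the Tom- library, with exact Poisson 95% intervals. In Tom- cells Edn1, Ccl11 and Vegfd rise at each step from 0 to 5 rule genes, with the largest step in CPM between 3 and 4. Pi16 is already above 1000 CPM at 0 rule genes.

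Marker-poor members were not uniform. The 10 Tom+ and 138 Tom- members of cluster 6 carried Edn1 at 91.7 and 176 CPM, whereas the 4 Tom+ and 99 Tom- members of cluster 0, of which 1 Tom- cell was marker-rich, carried it at 11.2 and 19.5 CPM. Ccl11 stood at 902 and 853 CPM in Tom+ and Tom- members of cluster 6, and at 0 UMIs and 16.2 CPM in those of cluster 0. Ace was at 193 and 195 CPM in cluster 6 members and at 11.2 and 8.36 CPM in cluster 0 members. Efhd1 differed little, with 299 and 263 CPM in cluster 6 members and 224 and 264 CPM in cluster 0 members, and Igfbp5 reached 2330 and 2852 CPM in cluster 6 members and 985 and 3334 CPM in cluster 0 members. Edn1, Ccl11 and Ace were among the leading genes of cluster 6 and were not left out of the clustering. Their values therefore describe the clusters and are no independent evidence of a split. The 26 Tom- members of cluster 5 had Ccl11 at 712 CPM and Igfbp5 at 207 CPM, a combination seen in neither of the other clusters.

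The marker-rich members held a different set. All 13 Tom+ marker-rich members carried Dpp4, Smpd3 and Sema3e and none carried Efhd1, Prdm8 or Edn1. Among the 113 Tom- marker-rich members 92 met the rule through exactly Dpp4, Smpd3 and Sema3e. Dpp4 and Smpd3 were also found in 76.4% and 74.0% of the 123 other Tom+ marker-rich cells and in 78.9% and 79.6% of the 700 other Tom- marker-rich cells, which did not meet the rule, so that Sema3e was the gene that set most of these members apart. Against the other marker-rich cells only 7 of 8527 genes (0.0821%) were at least 2 times higher in both libraries, and 21 (0.246%) were lower. The higher genes were Sema3e, Tppp3, Plet1, Sncg, Uchl1, Hopx and Gipc2. Tppp3, a tubulin-binding protein, had 155 CPM in Tom+ and 46.5 CPM in Tom- marker-rich members, against 23.5 and 17.6 CPM in the other marker-rich cells, and Hopx, a homeodomain-only cofactor, had 86.95 and 52.98 CPM against 29.9 and 24.1 CPM. A single Tom+ cell held 56.1% of the Tom+ UMIs of Tppp3, 60.9% of those of Hopx and 44.8% of those of Fn1. Fn1, the gene of fibronectin, was lower, at 253 and 325 CPM in Tom+ and Tom- marker-rich members against 928 and 762 CPM in the other marker-rich cells, and so was Fndc1, at 22.7 and 88.3 CPM against 249 and 218 CPM. Uchl1, Fndc1 and the other genes of this paragraph that lie outside the naming rule were chosen after their values were seen.

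Set beside 3 other fibroblast groups taken from cells that were not members, Edn1 was low in each. The rule genes are low in such cells by the choice of members. The 356 Tom+ and 3064 Tom- cells with Pi16 and Scara5 had Edn1 at 0.275 and 1.45 CPM and Ccl11 at 58.3 and 33.9 CPM. The 53 Tom+ and 163 Tom- cells with at least 2 of Gdf10, Myoc and Penk had 0 Edn1 UMIs and 6.53 CPM of Edn1, and Cxcl12 at 728 and 883 CPM. The 20 Tom+ and 34 Tom- cells with Cxcl12, Dner and Kcnn3 had 0 Edn1 UMIs in each library, and Ccl11 at 265 and 259 CPM. Edn1 of the marker-poor members, 59.9 and 102 CPM in Tom+ and Tom- cells, thus lay above all 3 groups. Ccl11 was higher in the last group than in the first. Pi16 was used to choose the first group, so sharing it with the members is no finding.

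The comparison between the sorted fractions asked whether cells with the p16-driven mark differ from those without it. A smaller share of gated cells met the rule in the Tom+ library, 3.15% (2.12 to 4.50), than in the Tom- library, 6.32% (5.73 to 6.95). Among marker-poor cells the Tom+ share was 2.04% (1.17 to 3.29) and the Tom- share 5.18% (4.60 to 5.80), and among marker-rich cells 9.56% (5.19 to 15.8) and 13.9% (11.6 to 16.5). Without the barcodes found in both libraries the marker-poor shares were 1.35% (0.648 to 2.46) and 5.18% (4.60 to 5.80). With each cell thinned to 5000 UMIs, which left out 207 of 920 Tom+ and 761 of 6220 Tom- gated cells as too shallow, they were 0.51% (0.105 to 1.48) and 2.61% (2.17 to 3.11). At 2000 UMIs only 1 Tom+ and 27 Tom- marker-poor cells met the rule. Cluster 6, found without the rule genes, took up 1.79% (0.980 to 2.98) of the Tom+ marker-poor cells and 2.79% (2.37 to 3.27) of the Tom- marker-poor cells, with overlapping intervals. Without the shared barcodes its shares were 1.21% (0.556 to 2.29) in the Tom+ and 2.79% (2.37 to 3.27) in the Tom- library, and the intervals did not overlap. The sort and the CD45 gate shape such shares, so they do not give the makeup of the tissue.

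**Figure D5:**
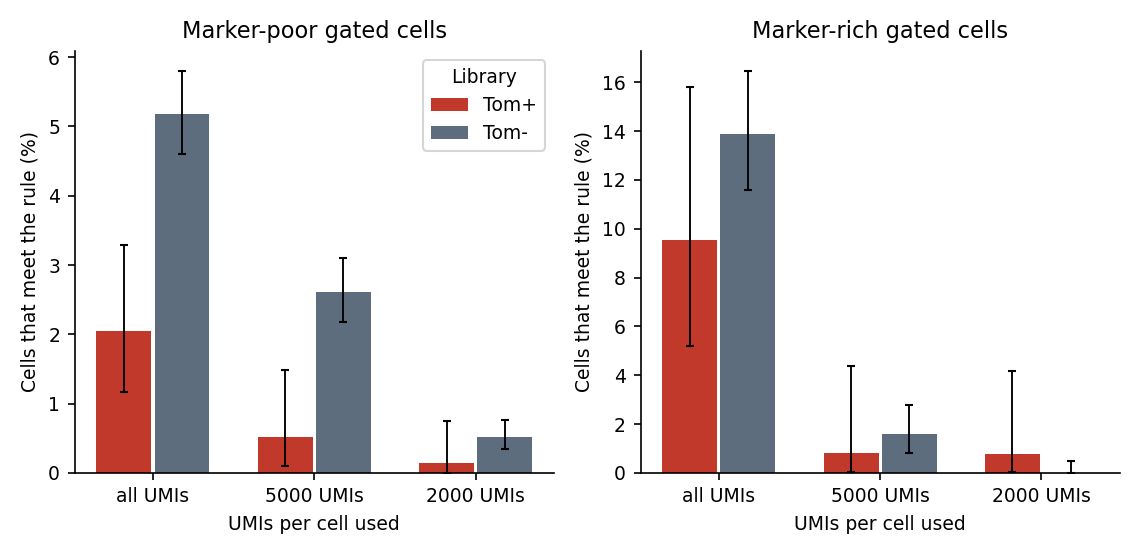
Bars give the percentage of cells that met the rule among marker-poor and marker-rich gated cells, red for the Tom+ and grey for the Tom- library, with 95% Clopper-Pearson intervals, using all UMIs or each cell thinned to 5000 or 2000 UMIs. Among marker-poor cells the Tom+ bars are lower at each depth; among marker-rich cells the intervals of the libraries overlap at each depth.

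The reporter followed the sort in the members. tdTomato stood at 1283 CPM in the 16 Tom+ marker-poor members and was found in all of them, with 1.66 per 10,000 UMIs in the lowest cell, 13.8 in the median and 25.7 in the highest. It stood at 13.4 CPM in the 280 Tom- marker-poor members, of which 16.4% (12.3 to 21.3) held a UMI, beside 19.1% of the other Tom- marker-poor cells. The Cdkn2a transcript, from the locus that encodes p16, was rare. A UMI of it was present in 0 of the 16 Tom+ and in 2 of the 280 Tom- marker-poor members, 0.714% (0.0866 to 2.56), against 28 of 768 other Tom+ and 174 of 5127 other Tom- marker-poor cells, 3.65% (2.44 to 5.23) and 3.39% (2.92 to 3.93). Cluster 6 had none, in 14 Tom+ and 151 Tom- cells, for which the upper bounds are 23.2% and 2.41%. The files do not separate the transcripts of this locus, and a low count of a rare transcript does not show that it is absent.

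Within the marker-poor members some of the leading genes were called different between the libraries. Vegfd, Dact2, Akr1c18, Plau and Eya2 were called higher and Edn1 lower in Tom+ members. Of 8997 measured genes 251 (2.79%) were called higher and 301 (3.35%) lower in the 16 Tom+ members than in the 280 Tom- members, at 1.5 times and with an interval of the ratio without 1. Such an interval covers counting error of the summed UMIs and not the spread between cells, so the share of genes it misses is not known. No adjustment for the number of genes was made, and single genes are to be read with both limits. Over all members the calls were 273 of 9406 (2.90%) higher and 343 (3.65%) lower, with the different share of marker-rich cells in each library contained in them.

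Of the genes that mark these fibroblasts, Pi16 had 2844 CPM in Tom+ and 3017 CPM in Tom- marker-poor members, a ratio of 0.943 (0.882 to 1.01). Vegfd was higher in the Tom+ members, by 1.56 times (1.32 to 1.84), and Ccl11 by 1.24 times (1.07 to 1.43), which is under the 1.5 times required. Cluster 6 held 10 of 16 Tom+ and 138 of 280 Tom- marker-poor members, a difference in share that was not tested. Within cluster 6 members the Tom+ cells had 733 CPM (621 to 860) of Vegfd, and the Tom- cells had 501 CPM (473 to 529). Ccl11 had 902 CPM (778 to 1041) in the Tom+ and 853 CPM (817 to 890) in the Tom- cells of that cluster. Edn1 was lower, at 59.9 CPM in Tom+ against 102 CPM in Tom- members, a ratio of 0.590 (0.358 to 0.921). Smpd3 was lower too, at 0.480 (0.291 to 0.748), but it is a rule gene and its detection helped choose the members. Without the shared barcodes the log2 ratio of Edn1 was -0.57. With each cell thinned to 2000 UMIs it was 0.0696, when few of its Tom+ UMIs were left. Cdkn1a, the p21 inhibitor of the cell cycle, had 59.9 CPM in Tom+ and 98.4 CPM in Tom- members, with 35.0% of the Tom+ UMIs from 1 cell. Cxcl12 stood at 89.9 and 107 CPM, a ratio of 0.838 (0.560 to 1.21).

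The genes named higher in Tom+ marker-poor members had ratios of 1.99 to 2.42, and fewer genes were called after thinning. With each cell thinned to 2000 UMIs, 79 of 4427 measured genes were called higher and 35 lower. Such counts fall by construction when fewer UMIs are left. Polr3d, a subunit of RNA polymerase III, had 53.9 CPM in Tom+ and 22.3 CPM in Tom- members, a ratio of 2.42 (1.39 to 4.00), and Sp140, a nuclear body protein, had 95.9 and 45.1 CPM, a ratio of 2.12 (1.42 to 3.08). Eya2 stood at 77.9 and 37.4 CPM, a ratio of 2.08 (1.33 to 3.15), and Plau at 105 and 51.9 CPM, a ratio of 2.02 (1.38 to 2.88). The others, Dnajb2, Aamdc, Map3k4, Ccpg1, Mrps26 and Eri3, had ratios between 1.99 and 2.13. The log2 ratio of Map3k4 was -4.97 in the thinned cells, a value that rests on the added 1 CPM because so few Tom+ UMIs were left. Each of these 10 rested on 18 to 35 UMIs in the Tom+ members.

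Larger ratios were found among the lower genes. Cxcl14 had 0 UMIs in Tom+ members and 83.1 CPM in Tom- members, at least 9.24-fold lower, where 18.2% of the Tom- members carried it. Hsd11b1, which regenerates active glucocorticoid, had 5.99 CPM in Tom+ and 51.1 CPM in Tom- members, a ratio of 0.117 (0.0141 to 0.428). Gpx3, a secreted glutathione peroxidase, stood at 50.9 and 339 CPM, a ratio of 0.150 (0.0874 to 0.242), and was detected in 50% of Tom+ and 50.4% of Tom- members. Lgals3, Gas6, Kdsr, Cyr61, Ptch1, Myoc and Srpx were the other lower genes named. A single cell held 50% of the 6 Tom+ UMIs of Lgals3 and 62.5% of the 8 of Cyr61. The log2 ratio of Lgals3 was 0.0022 with at least 2 rule genes, and that of Srpx was 0.22 with each cell thinned to 2000 UMIs. Over all 8997 measured genes 2.79% were higher and 3.35% lower. Of 13 measured subepithelial signalling genes 6 were lower and none higher. Among the 6, Cxcl14, Car3, Wnt4 and Cyp26b1 had 0 UMIs in Tom+ members, and against 3 counts Cyp26b1 was at least 1.51-fold lower. Of 34 measured Dpp4+ Pi16+ adventitial genes 2 were higher and 2 lower. Of 37 measured secretory factors associated with senescence 1 was higher and 9 were lower, with a median log2 ratio of -0.19 beside -0.04 over all measured genes. Marker-rich members of the libraries, 13 Tom+ and 113 Tom- cells, gave 237 of 9059 genes (2.62%) called higher and 295 (3.26%) lower in Tom+ members, with tdTomato at 1130 and 9.21 CPM. Among them Dpp4 stood at 159 and 160 CPM and Igfbp5 at 2336 and 2271 CPM in Tom+ and Tom- cells.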

How the data were processed

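Droplet-based 3' single-cell RNA sequencing measured CD45-negative, DAPI-negative bladder cells in 1 Tom+ and 1 Tom- library. The authors deposited raw UMI counts for 31054 features (tdTomato among them) in each barcode. The aligner and build were Cell Ranger 7.0.0 and mm10, as the submitters' processing notes list them, and the matrix header names version 3.0.2. No depth normalization was found in the deposited counts, which summed to 34455896 UMIs in the Tom+ and 197232860 in the Tom- library.

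Cells were filtered and chosen as the report states, and UMIs were summed per group and library and scaled to CPM. A gene was measured against other cells with at least 10 CPM in members or others and 20 UMIs in each library, and between libraries with 10 CPM in 1 library and 20 UMIs over both. Ratios are log2 with 1 CPM added, called at 2 times in both libraries, or between libraries at 1.5 times with a conditional binomial 95% interval without 1. Shares carry Clopper-Pearson and CPM exact Poisson intervals. Genes called named are the 15 highest and 10 lowest against other cells, at 50 CPM or more and detected in 10% or more of the cells where higher, and the 10 highest and 10 lowest between libraries, with 50 UMIs and at most 25% of them in 1 cell. Rule, gate, ribosomal, mitochondrial and other-cell marker genes were left out of that ranking, while the extremes of each list, Edn1, Cxcl12, Cdkn1a, Cdkn2a and tdTomato could be described. Clusters used scanpy 1.11.5 with 2000 variable genes, 30 components, 15 neighbours and resolution 1. Doublets were predicted per library with Scrublet and kept; it marked 0.528% of Tom+ and 6.51% of Tom- cells past the filter. edgeR 4.0.16 gave TMM factors as an alternative scaling. The calculations were run on simulated sums with known changes and counting error only. These held no spread between cells and no choice of members, so the run does not check those limits. Coordinates come from a GRCm38 annotation and promoters from RefSeq. The members, gene lists and markers were chosen with earlier results of these data known.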

Additional observations from a re-analysis of the deposited data

Results flagged for a closer look

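The search covered only the genes named between Tom+ and Tom- members, with Edn1, Cdkn2a, Cdkn1a and Cxcl12 added, not all measured genes. Most of these were chosen because they differed between the libraries. For 8 of them the Tom+ over Tom- ratio ran one way in marker-poor members and the opposite way in marker-rich members. The intervals left out 1 in both kinds of member, and the difference between the kinds was not tested. Cdkn1a had a log2 ratio of -0.71 in marker-poor members and 2.78 in marker-rich members, where 56.6% of the Tom+ UMIs came from 1 cell. Gpx3 had -2.71 and 0.89, with 68.2% of the marker-rich Tom+ UMIs in 1 cell. Lgals3 had -2.52 and 0.24, and Cyr61 had -1.92 and 1.84, with 90.4% of its marker-rich Tom+ UMIs in 1 cell. Pogk had -2.70 and 1.84, from 1 UMI in Tom+ marker-poor members. Meg3 had 0.63 and -3.60, with 42.6% of the marker-poor Tom+ UMIs in 1 cell and 1 UMI in Tom+ marker-rich members. Mfap5 had 0.13 and -2.43, and Clec3b 0.38 and -2.43, from 3 and 6 UMIs in Tom+ marker-rich members.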

How the results depend on the processing

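No paired analysis was possible because each group has 1 library. Of 130 alternatives to the shares and counts, 90 stayed within 1.5 times or the interval of the reported value and 40 did not; of 1338 alternatives for single genes, 1091 moved little, 223 moved further and 24 changed sign. The share meeting the rule was 0.230% of Tom+ and 0.453% of Tom- cells thinned to 2000 UMIs, 0.561% and 2.47% thinned to 5000, 15.5% and 18.7% with at least 2 rule genes and 1.20% and 2.41% with at least 4. It was 2.04% and 5.18% without marker-rich cells and 9.56% and 13.9% in these alone. Genes higher and lower in all members than in other cells, 181 and 203 as reported, numbered 497 and 337 with at least 2 rule genes, 295 and 531 with 4, 276 and 403 without a minimum CPM, 97 and 67 at 50 CPM, 274 and 334 without marker-rich cells and 7 and 21 in these alone. In marker-poor cells 274 and 334 became 169 and 205 with at least 2 rule genes and 161 and 106 at 50 CPM; 701 were lower without a minimum CPM, and 177 were higher after thinning to 2000 UMIs. Between Tom+ and Tom- members 273 and 343 became 94 and 185 with at least 2 rule genes, 102 and 126 at 50 CPM and 129 and 76 after thinning. In marker-poor members 251 and 301 became 125 and 140 at 50 CPM and 79 and 35 after thinning. Counts fall with fewer genes or UMIs measured by construction; the cause of the other changes was not tested.

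Log2 ratios of Tom+ over Tom- members that changed sign were Flnc at 0.0943 with at least 2 rule genes, and Serpinb6b at -4.22, Slc39a8 at -1.47, Mical2 at -2.52 and Cdkn1a at -1.11 with 4. After thinning they were Apex1 at -0.79, Grcc10 at -0.61 and Cryl1 at -0.61. Without marker-rich cells they were Serpinb6b at -3.57, Slc39a8 at -1.59, Mical2 at -0.0418 and Cdkn1a at -0.71. In marker-poor members Lgals3 was 0.0022 and Cxcl12 0.0368 with at least 2 rule genes, Cxcl12 was 0.0757 without shared barcodes, and Map3k4 was -4.97, Srpx 0.22 and Edn1 0.0696 after thinning. Ratios of members over other cells that changed sign in marker-rich cells alone were Edn1 at -1.44, Adamts5 at -0.26, Scara3 at -0.42, Marcks at -0.78, Prrx1 at -0.15 and Cxcl14 at 0.0307. The Tom+ marker-poor members were 16 cells with 333698 UMIs in all, where 3 counts correspond to 8.99 CPM. Serpinb6b had 0 UMIs in these cells, so its negative values rest on the added 1 CPM, as does the -4.97 of Map3k4.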
